A study of Mus musculus with 9 samples.

Results

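The 9 genes described here make, bind and respond to retinoic acid. They were taken by symbol from the 26858 genes of the deposited count table: *Stra6*, the retinol uptake receptor of the cell surface, the retinaldehyde dehydrogenases *Aldh1a1*, *Aldh1a2* and *Aldh1a3*, the cellular retinoic acid binding proteins *Crabp1* and *Crabp2*, and the retinoic acid receptors *Rara*, *Rarb* and *Rarg*. All 9 were found, and 8 of them passed the filter on low counts and were tested. Cells were sorted by the eGFP fused to Cre recombinase, which is driven by a *Six2* bacterial artificial chromosome transgene, from mouse kidneys at E18.5, late in gestation. Control cells (n = 4 libraries) came from the Six2-Qpc heterozygous line and mutant cells (n = 5 libraries) from the Six2-Qpc knockout line, in which both floxed alleles of *Uqcrq*, also called *Qpc*, are targeted. Both groups carry the Cre transgene, and the controls are heterozygous, so neither group represents cells without Cre or with an intact gene. The study counts mice in the same numbers as there are libraries, while the labels do not tie each library to its own animal. Should any libraries share an animal, their p-values would measure a spread that is technical in part.

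Retinoic acid is made from vitamin A in successive steps. Retinol enters the cell, is oxidized reversibly to retinal by retinol dehydrogenases, chiefly RDH10 in the embryo, and is then oxidized irreversibly to retinoic acid by the retinaldehyde dehydrogenases. Retinoic acid binds heterodimers of a retinoic acid receptor (RAR) and a retinoid X receptor (RXR) on DNA, and enzymes of the CYP26 family break it down. In the developing kidney, retinoic acid signaling is best known for sustaining *Ret* expression in the ureteric bud.

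*Rarb* and the breakdown enzyme gene *Cyp26a1* are textbook examples of genes that carry the DNA element bound by RAR and RXR close to their start. The stretches shown here are the 250 bases before the RefSeq start of each gene (build GRCm38.p6), chr14:16575477-16575726 on the minus strand for *Rarb* and chr19:37697558-37697807 on the plus strand for *Cyp26a1*, each written on the strand of its gene. They are shown because these genes, which have the same kind of element, had different values in the sorted cells. Capitals mark paired half-sites with a spacer of 5 bases.
Rarb: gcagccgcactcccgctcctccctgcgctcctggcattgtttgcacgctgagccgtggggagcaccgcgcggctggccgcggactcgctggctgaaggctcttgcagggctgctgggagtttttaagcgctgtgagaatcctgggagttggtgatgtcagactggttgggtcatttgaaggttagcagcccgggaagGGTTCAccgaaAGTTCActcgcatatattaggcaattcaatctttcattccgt
Cyp26a1: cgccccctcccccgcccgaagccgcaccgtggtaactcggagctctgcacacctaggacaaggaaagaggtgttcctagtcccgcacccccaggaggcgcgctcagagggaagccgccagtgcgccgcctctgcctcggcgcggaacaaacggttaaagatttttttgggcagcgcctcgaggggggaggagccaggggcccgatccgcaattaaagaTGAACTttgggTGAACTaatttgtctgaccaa
The search took the half-site AGGTCA and its variants, namely GGGTCA, then AGTTCA, and also GGTTCA, in any pair, in the same orientation, on either strand, with a spacer of 1, 2 or 5 bases, over windows from 250 bases before to 50 bases after each start. In *Rarb* the pair read GGTTCA first, followed by AGTTCA, on the strand of the gene and lay 53 to 37 bases before the start. In *Cyp26a1* the half-site AGTTCA was present as a repeat on the opposite strand, so that the capitals show TGAACT, and lay 32 to 16 bases before the start. Of all 32851 windows in the RefSeq table, 0.0974% held a pair with a spacer of 5 bases and 0.588% a pair with any of these spacers. Windows were given for 7 of the 9 genes, 15 windows in all, and that of *Rarb* was the only one with a pair. Windows were also given for 25 of 37 other retinoid genes, and *Bco1* was the other gene with a pair, with a spacer of 1 base. A match describes letters and does not show binding.

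Libraries held between 21040536 and 23986458 counts. Levels are given as counts per 1000000 of the library size after TMM scaling (CPM), and 14990 genes were tested. Of these, 14.8% had an adjusted p-value under 0.05 (edgeR quasi-likelihood test, Benjamini-Hochberg adjustment over all genes tested), 7.82% with higher and 7.02% with lower levels in mutant cells, and 15.2% had no overlap between genotypes. The number of genes past this threshold was 2225, and it dropped to 1354, 1272 or 1046 when control replicate 71, 72 or 73 was left out, and to 1336 when mutant replicate 78 was. It rose to 3136 without mutant replicate 74 and was 2279 without control replicate 76. *Uqcrq* fell by 2.14 on the log2 scale in mutant cells (standard error 0.16, adjusted p = 2.09e-05, edgeR), with no overlap between genotypes. None of 10 nephron progenitor markers passed the threshold, and their median log2 fold change was 0.09. *Six2* had 506 to 795 CPM in every library, but the sort used a *Six2* transgene, so its level cannot stand for the list. The smallest adjusted p-value of the 10 was that of *Pax2* (log2 fold change -0.55, adjusted p = 0.0881, edgeR). The sorted cells also held transcripts of other cell types. Of 14 stromal markers, 13 were tested and 8 were higher in mutant cells. *Tbx18* was at 0 in control replicate 73 and mutant replicates 75 and 77, and their summed level was 241 to 364 CPM in control and 479 to 1124 CPM in mutant libraries, with the highest value in mutant replicate 75. *Pdgfra*, a receptor gene that marks stroma, had 1.22 to 6.62 CPM in control and 19.9 to 118 CPM in mutant libraries. *Pdgfrb*, another receptor gene of the list, was among the 5 tested stromal markers that did not pass. It had 5.45 to 13.9 CPM in control and 4.39 to 11.8 CPM in mutant libraries (log2 fold change -0.51, adjusted p = 0.315, edgeR). Summed macrophage markers were 2.26 to 12.0 CPM in control and 9.97 to 131 CPM in mutant libraries, with the highest value in mutant replicate 77 and 1 of 7 markers past the threshold. Tests covered 4 of 8 ureteric bud, 3 of 5 podocyte, 2 of 6 proximal tubule and 1 of 6 erythroid markers. None of these tested markers passed the threshold, and a change in the untested ones cannot be judged. The median log2 fold change of the 4 ureteric bud markers tested was -0.66, but they did not move together. *Wnt11* had -0.85, *Hoxb7* -0.47 and *Tfcp2l1* -1.28, while *Calb1* had 2.88. *Calb1* had 216 reads in mutant replicate 77 and 0 to 28 reads in the other libraries. Of 5 endothelial markers tested, *Pecam1* was higher and *Plvap* lower. In whole sorted samples a change in the proportion of cells of a type and a change in RNA per cell cannot be told apart.

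Per unit of gene length, the sorted cells held far more transcript of *Aldh1a2* than of any other of the 9 genes. Levels between genes were compared in FPKM, the unit scaled by gene length and library size that the authors deposited. *Aldh1a2* had a mean of 282 FPKM over the 9 libraries (range 235 to 352), above 98.0% of the genes tested, followed by *Crabp2* with 110 FPKM (64.3 to 193) and *Rarb* with 35.7 FPKM (26.5 to 49.2). *Rara* (16.4 FPKM), *Stra6* (11.3 FPKM) and *Crabp1* (8.17 FPKM) came next. The ranges of neighbors overlapped between *Rara* and *Stra6* and between *Stra6* and *Crabp1*, which were in that order in 7 and 6 of 9 libraries. *Rarg* had 1.64 FPKM and *Aldh1a3* 0.990 FPKM, with *Rarg* higher in 7 of 9 libraries, and *Aldh1a1* was last with 0.0394 FPKM. Within each family a single gene had the largest share in every library. *Aldh1a2* made up 99.4% to 99.9% of the summed FPKM of the dehydrogenases, *Crabp2* 89.0% to 96.9% of that of the binding proteins and *Rarb* 59.3% to 76.6% of that of the receptors. *Rara* held 20.7% to 39.1% of the receptor sum. Reads from the exons that *Rarb* shares with *Top2b*, described below, could raise the level and share of *Rarb*.

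**Figure D1:**
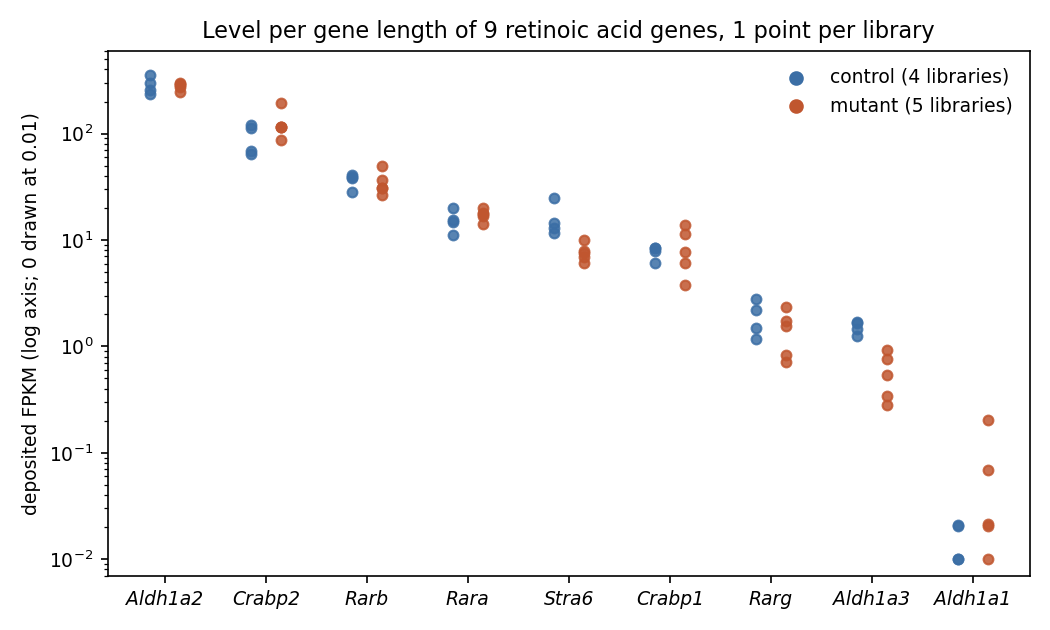
Deposited FPKM (log axis) of the 9 genes, ordered by mean, with 1 point for each control (blue) and mutant (orange) library and values of 0 drawn at 0.01. *Aldh1a2* lay between 235 and 352 FPKM and *Aldh1a1* at or under 0.202 FPKM in every library.

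Of the 8 genes tested, *Stra6* and *Aldh1a3* were lower in mutant cells and none was higher, against 7.02% of all tested genes that were lower. Both also separated the genotypes without overlap, as did 7.73% of all tested genes with mutant libraries lower, and 7.5% did with mutant libraries higher. The other 6 did not pass the threshold. The median log2 fold change of the 8 genes was 0.04, and that of all genes tested was -0.01.

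*Stra6* (ENSMUSG00000032327, chromosome 9, 58063788 to 58153996, mm10) encodes the membrane receptor that takes up retinol from its carrier in blood, and it takes its name from its induction by retinoic acid. It had 35.5, 69.7, 42.1 and 39.3 CPM in control replicates 71, 72, 73 and 76, and 29.8, 25.5, 22.6, 19.9 and 23.0 CPM in mutant replicates 74, 75, 77, 78 and 79. The mutant libraries all lay under the lowest control library, and control replicate 72 was the highest by a wide margin. The mean was 46.6 ± 15.6 CPM (SD, n = 4) in control cells against 24.1 ± 3.73 CPM (SD, n = 5) in mutants, which is 1.93-fold lower by the fit. The log2 fold change was -0.95 (standard error 0.20, 95% interval -1.37 to -0.53, adjusted p = 0.00805, edgeR; 2-sided exact permutation test, p = 0.00794, the smallest that 4 libraries against 5 allow). Without control replicate 72 the log2 fold change was -0.69, and the gene passed the threshold with any single library left out and in each of the 17 alternatives.

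The dehydrogenases that make retinoic acid did not move together. *Aldh1a3* (ENSMUSG00000015134, chromosome 7, 66390892 to 66427517) had 4.98, 5.22, 5.61 and 4.26 CPM in control replicates 71, 72, 73 and 76, and 2.56, 1.24, 3.42, 1.97 and 0.953 CPM in mutant replicates 74, 75, 77, 78 and 79. No mutant library reached the lowest control library, and the gene had 101 to 134 reads per control and 21 to 67 reads per mutant library. The mean fell from 5.02 ± 0.565 CPM (SD, n = 4) to 2.03 ± 0.999 CPM (SD, n = 5), which is 2.48-fold lower by the fit (log2 fold change -1.31, standard error 0.34, 95% interval -2.05 to -0.57, adjusted p = 0.0234, edgeR; 2-sided exact permutation test, p = 0.0159). The result was sensitive to single libraries, with an adjusted p-value of 0.0547 without control replicate 71, 0.0568 without control replicate 72, 0.0696 without control replicate 73 and 0.0506 without mutant replicate 78 (edgeR), which leaves *Stra6* as the only gene of the 8 past the threshold.

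*Aldh1a2* (ENSMUSG00000013584, chromosome 9, 71215789 to 71296243), the main retinaldehyde dehydrogenase of the early embryo, had 529, 735, 644 and 575 CPM in control replicates 71, 72, 73 and 76, and 655, 653, 699, 593 and 648 CPM in mutant replicates 74, 75, 77, 78 and 79. All mutant libraries lay within the range of the control libraries. The mean was 621 ± 89.5 CPM (SD, n = 4) in control cells against 649 ± 37.5 CPM (SD, n = 5) in mutants, and the fitted log2 difference was 0.07 (adjusted p = 0.741, edgeR, standard error 0.12). The 95% interval was -0.19 to 0.32, and the gene had 12058 to 18869 reads per library. *Aldh1a1* (ENSMUSG00000053279, chromosome 19, 20601961 to 20643462) was close to absent, with 0 or 1 read per control library and 1, 1, 3, 9 and 0 reads in mutant replicates 74, 75, 77, 78 and 79. Only mutant replicate 78 exceeded 3 reads, the number used as a floor for counting error, and the gene was not tested.

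The binding proteins carry retinoic acid in the cytoplasm, and CRABP2 can hand it on to the receptors in the nucleus. *Crabp2* (ENSMUSG00000004885, chromosome 3, 87948666 to 87953376) had 111, 58.6, 57.0 and 104 CPM in control replicates 71, 72, 73 and 76, and 105, 190, 116, 115 and 79.4 CPM in mutant replicates 74, 75, 77, 78 and 79. The genotypes overlapped, the control libraries fell into a lower and a higher pair, and mutant replicate 75 was the highest. The log2 fold change was 0.55 (standard error 0.26, 95% interval 0.0030 to 1.101, adjusted p = 0.157, edgeR), and it was 0.33 without mutant replicate 75. That library also had the highest summed stromal markers, 1124 CPM against 479 to 712 CPM in the other mutant libraries, and the part of stromal cells in the *Crabp2* value was not tested. *Crabp1* (ENSMUSG00000032291, chromosome 9, 54764748 to 54773110) had 4.81 to 6.69 CPM in control libraries and 10.8, 9.74, 5.25, 3.20 and 6.08 CPM in mutant replicates 74, 75, 77, 78 and 79. The mutant libraries lay on both sides of the control range, and the log2 fold change was 0.24 (standard error 0.31, 95% interval -0.43 to 0.92, adjusted p = 0.641, edgeR).

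**Figure D2:**
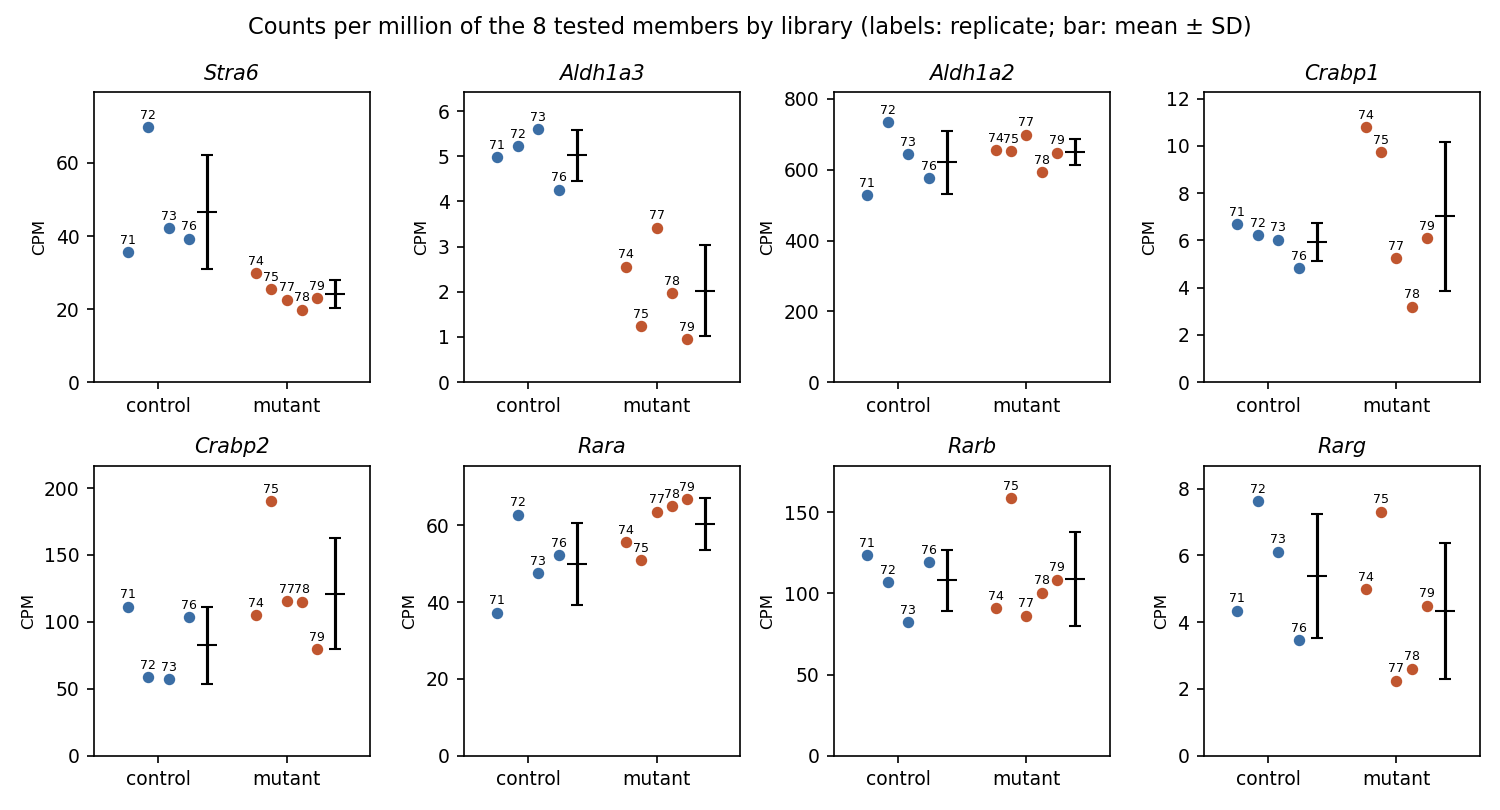
CPM (linear axes from 0) of the 8 tested genes in each control (blue, n = 4) and mutant (orange, n = 5) library, with replicate numbers above the points and the mean ± SD as a black bar. The genotypes do not overlap for *Stra6* and *Aldh1a3* and overlap for the other 6 genes.

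None of the receptor genes passed the threshold. *Rara* (ENSMUSG00000037992, chromosome 11, 98927818 to 98974942), the most widely expressed of the receptors, had 37.2, 62.7, 47.5 and 52.1 CPM in control replicates 71, 72, 73 and 76, and 55.6, 50.8, 63.6, 65.0 and 66.8 CPM in mutant replicates 74, 75, 77, 78 and 79. Of the mutant libraries, 3 were above all control libraries, and the log2 fold change was 0.27 (standard error 0.15, 95% interval -0.05 to 0.60, adjusted p = 0.239, edgeR). *Rarb* (ENSMUSG00000017491, chromosome 14, 16430842 to 16575472), itself a target of retinoic acid through the element shown above, had 124, 107, 82.1 and 119 CPM in control replicates 71, 72, 73 and 76, and 90.8, 159, 86.4, 100 and 109 CPM in mutant replicates 74, 75, 77, 78 and 79. The means were 108 ± 18.6 CPM (SD, n = 4) and 109 ± 29.1 CPM (SD, n = 5), and the log2 difference was 0.01 (standard error 0.18, 95% interval -0.37 to 0.40, adjusted p = 0.970, edgeR). As for *Crabp2*, the highest value was that of mutant replicate 75, and the fit gave -0.16 when that library was left out. Annotated exons of *Rarb* overlap those of *Top2b* on the opposite strand over 1793 bp in GENCODE M21, and *Top2b* had a mean of 115 CPM. Since strand was not recorded, reads from this stretch could belong to either gene. *Rarg* (ENSMUSG00000001288, chromosome 15, 102234938 to 102257517) was weakly expressed, with 82 to 196 reads per control and 44 to 165 reads per mutant library. It had 3.46 to 7.63 CPM in control and 2.24 to 7.31 CPM in mutant libraries, ranges that overlap, and a log2 fold change of -0.31 (standard error 0.35, 95% interval -1.07 to 0.44, adjusted p = 0.583, edgeR).

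The other genes of the pathway were taken from a list of 37 genes arranged by role, of which 27 were tested. Of these, 4 were lower and 3 higher in mutant cells, against 14.8% of all tested genes past the threshold in either direction, and their median log2 fold change was -0.0035. The number past the threshold was 4 without control replicate 71 or 76, 3 without control replicate 73 and 4 without mutant replicate 78.

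The lower genes lie on both sides of retinoic acid in the pathway, in the interconversion of retinol and retinal and in breakdown. *Rdh10*, the retinol dehydrogenase whose loss lowers retinoic acid in mouse embryos, had 204, 257, 228 and 238 CPM in control replicates 71, 72, 73 and 76, and 112, 142, 133, 129 and 111 CPM in mutant replicates 74, 75, 77, 78 and 79. The highest mutant library was well under the lowest control library. The fall was 1.85-fold by the fit (log2 fold change -0.88, standard error 0.11, adjusted p = 0.000744, edgeR). *Dhrs4*, a short-chain dehydrogenase/reductase that acts on retinal, had 67.5 to 77.9 CPM in control and 35.5 to 43.7 CPM in mutant libraries, again with no overlap. The log2 difference was -0.92 (95% interval -1.16 to -0.68, standard error 0.11, adjusted p = 0.000525, edgeR), and both *Rdh10* and *Dhrs4* passed the threshold in each of the 17 alternatives. *Rdh14*, another retinol dehydrogenase, had 69.8 to 99.9 CPM in control and 52.0 to 71.5 CPM in mutant libraries, which overlap through mutant replicate 75. Its log2 fold change of -0.44 (adjusted p = 0.0418, edgeR) passed the threshold with 3 of the 9 libraries left out in turn, and the adjusted p-value was otherwise at most 0.119, without control replicate 71. It lay between 0.0687 and 0.0962 without control replicate 73 or 76 or mutant replicate 77, 78 or 79.

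*Dhrs3*, which reduces retinal back to retinol and is induced by retinoic acid, had 91.6 to 177 CPM in control and 77.6 to 197 CPM in mutant libraries. The genotypes overlapped throughout, and the log2 fold change was -0.07 (standard error 0.27, 95% interval -0.66 to 0.51, adjusted p = 0.881, edgeR). *Rdh11*, *Adh1*, *Adh5*, *Rbp4* and *Stra6l*, listed in the table as 1300002K09Rik, did not pass either, and *Lrat*, *Adh7* and *Bco1* had at most 3 reads in any library.

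Of the CYP26 enzymes, which hydroxylate and so remove retinoic acid, *Cyp26a1* (chromosome 19, 37697808 to 37701528) was the only one tested. It had 69, 29, 14 and 61 reads in control replicates 71, 72, 73 and 76, and 0, 1, 0, 5 and 18 reads in mutant replicates 74, 75, 77, 78 and 79. Mutant replicate 79, with 0.817 CPM, was above control replicate 73, with 0.590 CPM, and all other mutant libraries were below all control libraries. The mean was 1.81 ± 1.13 CPM (SD, n = 4) in control cells against 0.221 ± 0.348 CPM (SD, n = 5) in mutants. The log2 fold change was -2.99 (standard error 0.89, 95% interval -4.91 to -1.08, adjusted p = 0.0385, edgeR; 2-sided exact permutation test, p = 0.0159). The call rested on most of the libraries. The adjusted p-value was 0.112, 0.0609, 0.0515 and 0.0734 without control replicates 71, 72, 73 and 76, and 0.0719, 0.0667 and 0.0726 without mutant replicates 75, 77 and 78, while the log2 difference grew to -4.57 without mutant replicate 79. *Cyp26b1* had 1 to 25 reads and *Cyp26c1* 0 to 4 reads per library.

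**Figure D3:**
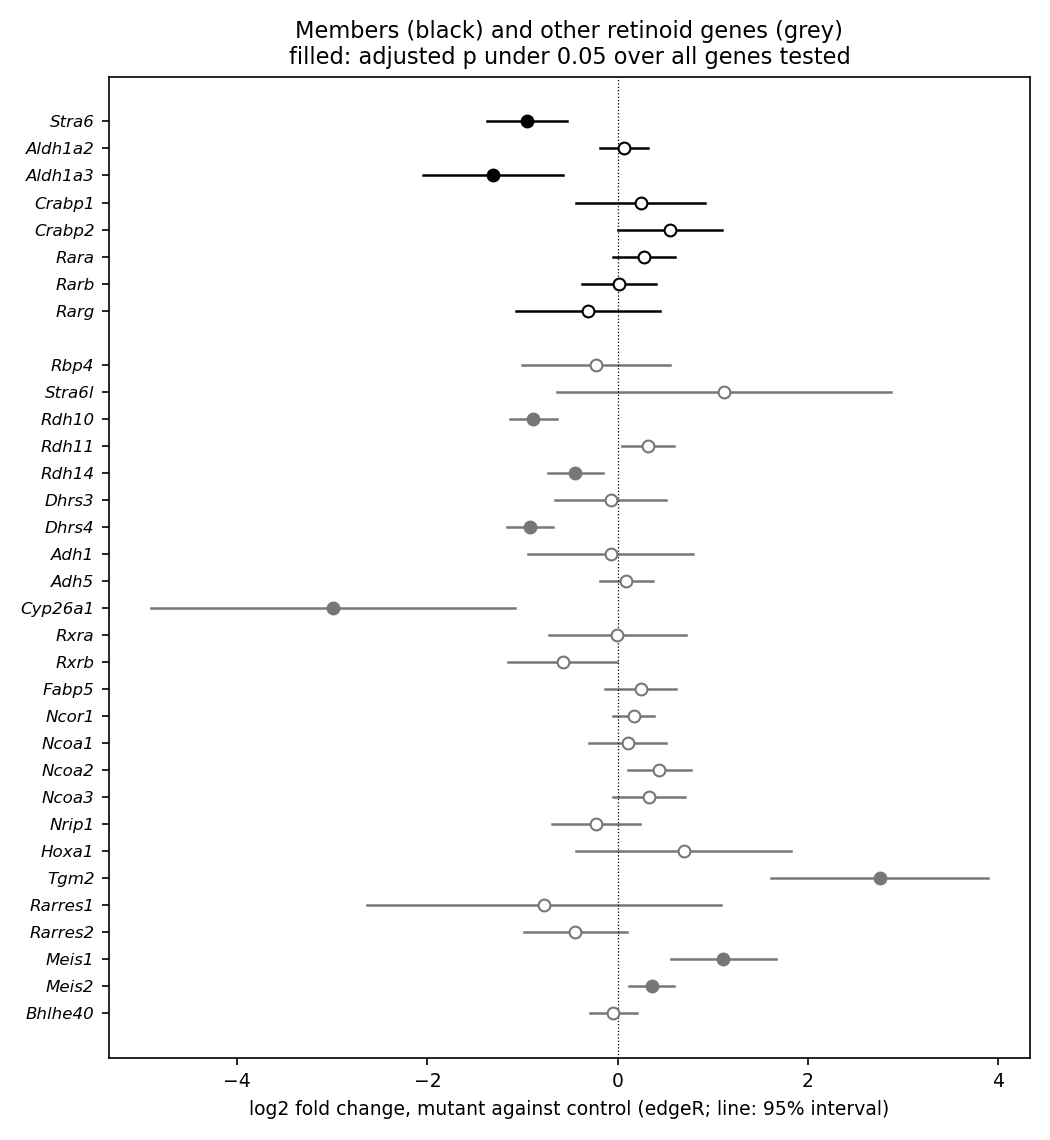
Log2 fold change, mutant against control, from the edgeR fit (points) with its 95% interval (lines) for the 8 tested members (black) and 25 of the other retinoid genes tested (grey). Filled points, an adjusted p-value under 0.05, are *Stra6*, *Aldh1a3*, *Rdh10*, *Rdh14*, *Dhrs4* and *Cyp26a1* to the left of 0 and *Tgm2*, *Meis1* and *Meis2* to the right.

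The RXR genes, whose products pair with the retinoic acid receptors, did not pass the threshold. *Rxrb* had 45.2 to 95.9 CPM in control and 25.4 to 64.4 CPM in mutant libraries, a log2 difference of -0.58 (standard error 0.27, 95% interval -1.15 to -0.0018, adjusted p = 0.158, edgeR), and it passed without mutant replicate 74 (adjusted p = 0.0479, edgeR). With limma-voom the *Rxrb* difference was -0.77 and passed (adjusted p = 0.0180), and with 1 surrogate variable it was -0.20 and did not. *Rxra* was weakly expressed, with 4.68 to 8.64 CPM in control and 3.42 to 9.21 CPM in mutant libraries, and *Rxrg* had 0 to 21 reads per library and was not tested. *Fabp5*, which codes for another carrier of retinoic acid, and the coregulator genes *Ncor1*, *Ncoa1*, *Ncoa2*, *Ncoa3* and *Nrip1* did not pass. The log2 fold changes of these coregulators lay between -0.23 and 0.44. The highest was that of *Ncoa2* (adjusted p = 0.0708, edgeR), which passed in 5 of the 17 alternatives, namely DESeq2, limma-voom, 1 surrogate variable, without mutant replicate 77 and without mutant replicates 75 and 77, and *Ncoa3* passed with 1 surrogate variable alone.

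Of the genes listed because they are known to respond to retinoic acid in other settings, 7 of 11 were tested, and 3 were higher in mutant cells, against 7.82% of all tested genes. *Meis1*, among the 3, is also in the stromal marker list. The list leaves out *Stra6*, *Cyp26a1*, *Rarb* and *Dhrs3*, described above, which also respond to retinoic acid. Of those, *Stra6* and *Cyp26a1* were lower in mutant cells, and *Rarb* and *Dhrs3* did not pass the threshold. *Tgm2*, a transglutaminase, had 0.596, 5.02, 2.15 and 2.40 CPM in control replicates 71, 72, 73 and 76, and 18.8, 34.0, 8.67, 12.0 and 12.8 CPM in mutant replicates 74, 75, 77, 78 and 79. No control library reached the lowest mutant library, and the log2 fold change was 2.75 (95% interval 1.62 to 3.89, standard error 0.53, adjusted p = 0.00599, edgeR). *Meis1*, a homeobox gene, rose from 22.7 to 36.1 CPM in control libraries to 38.9 to 105 CPM in mutant libraries (log2 fold change 1.11, standard error 0.26, adjusted p = 0.0136, edgeR), and the adjusted p-value was 0.0515 without control replicate 73. *Meis2* had 221 to 279 CPM in control and 311 to 358 CPM in mutant libraries (log2 fold change 0.36, standard error 0.11, adjusted p = 0.0419, edgeR), and it stayed under 0.05 only when mutant replicate 74 was the library left out, with values up to 0.151 without control replicate 73. For *Tgm2* and *Meis1* mutant replicate 75 was the highest library and mutant replicate 74 the next, as it was for the summed stromal markers. The part of stromal cells in these rises was not tested. Annotated exons of *Tgm2* overlap those of *Rprd1b* on the opposite strand over 370 bp, and *Rprd1b* had a mean of 73.4 CPM against 2.54 CPM of *Tgm2* in control cells. *Ret*, the receptor gene of the ureteric bud, had 0 to 13 reads per library and was not tested.

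**Figure D4:**
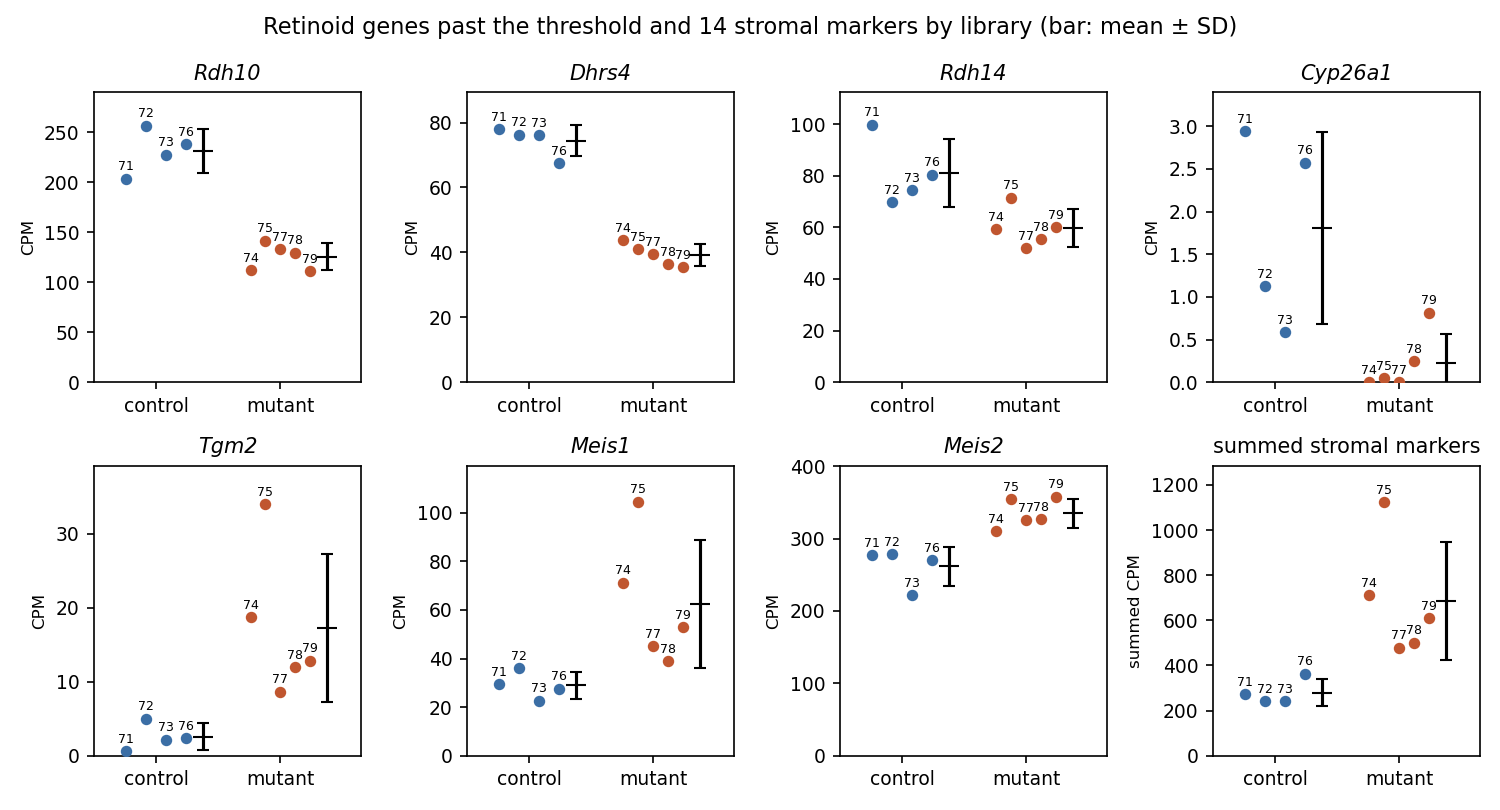
CPM (linear axes from 0) by library of the 7 retinoid genes past the threshold outside the 9 members, and the summed CPM of 14 stromal markers, in control (blue, n = 4) and mutant (orange, n = 5) libraries, with the mean ± SD as a black bar, which for *Cyp26a1* in mutant cells runs below the axis. *Rdh10* and *Dhrs4* separate the genotypes downward, and *Tgm2*, *Meis1*, *Meis2* and the stromal sum separate them upward, with mutant replicate 75 highest for *Tgm2*, *Meis1* and the sum.

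Genes of another list also differed between the same libraries. Of 6 markers of committed progenitors and the renal vesicle, *Wnt4* and *Lhx1* were lower in mutant cells, against 7.02% of all tested genes. The other 4 did not pass. Of these, *Fgf8* had a log2 fold change of -1.11 (adjusted p = 0.0540, edgeR) and passed in 8 of the 17 alternatives. *Jag1* had -0.69 (adjusted p = 0.125, edgeR), *Lef1* -0.62 (adjusted p = 0.143, edgeR) and *Pax8* -0.0020 (adjusted p = 0.996, edgeR). The median log2 fold change of the 6 markers was -0.90. The summed level of the list was 308 to 555 CPM in control and 222 to 339 CPM in mutant libraries, and these ranges overlap. The study reports a smaller share of eGFP-positive cells in mutant than in heterozygous kidneys. It also states that sorting of differentiating heterozygous cells with low GFP could not be fully excluded. The part of committed cells in the lower values of *Stra6*, *Aldh1a3*, *Rdh10* and *Cyp26a1* was not tested.

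The genes whose pattern over the 9 libraries was most like that of *Stra6* were 4930432K21Rik, *Zfp93* and *Slc27a3*. Likeness was measured as the root mean square difference in log2 CPM, each gene centred on its own mean, over 10662 genes whose mean level was 5 CPM or more. The differences were 0.16, 0.17 and 0.17, against a median of 0.59 over the genes compared. For *Aldh1a3* the nearest genes were *D3Ertd751e*, *Tgtp1* and *Tnfaip2*, with differences of 0.30, 0.33 and 0.33 and a median of 0.89. All 6 of these genes were lower in mutant cells (adjusted p = 0.00447 to 0.0421, edgeR), which the measure favors, since it reads the same 9 libraries.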

How the data were processed

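RNA-seq of sorted cells was analysed from a single deposited table with 4 control and 5 mutant libraries. According to the labels, cDNA was amplified from low-input RNA with poly(A) selection and without strand information, and the submitters' processing notes name STAR, DESeq2 and build mm10, with no versions. The read counter and annotation are not given in the sources used here. The table holds the authors' read counts per gene and library, and the authors also deposited FPKM for each gene (rebuilt here from counts, length and library total within 0.1% for 100% of nonzero values). Its columns of mean signal, log2 fold change and p-value from the authors' own comparison were not used.

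Counts were filtered with filterByExpr, normalized by TMM and tested with the quasi-likelihood test (robust) in edgeR 4.0.16 (R 4.3.3), with Benjamini-Hochberg adjustment over 14990 genes and a threshold of 0.05. Standard errors were derived from the fold change and the F statistic. Exact permutation tests covered all 126 assignments of 5 mutant labels among 9 libraries. The fit was tested on simulated data. Gene depth is stated as reads per library, and floors cover counting error only. Alternatives were no filter or a minimum of 10 counts throughout, upper-quartile or RLE scaling, 1 surrogate variable (sva 3.50.0), DESeq2 1.42.0, limma-voom with quality weights (limma 3.58.1) and leaving out each library. Leaving out mutant replicates 75 and 77 together was added after seeing the data.

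The members and lists were chosen with earlier results of these data known. Named genes were all members, pathway genes set by name (*Rdh10*, *Dhrs3*, the CYP26, RXR and MEIS genes and *Ret*), other pathway genes past the threshold up to 10, the 3 genes most like each member past the threshold, and markers that moved with a result. *Pdgfra*, *Pdgfrb*, *Pax2* and *Six2* are examples from their marker lists. The markers of committed progenitors and the renal vesicle and the tested ureteric bud markers are all named. The other pathway genes named without a call are named to complete their role. Genes were matched by symbol, or by RefSeq synonym where the table uses an older symbol, and coordinates are those of the table. A few listed genes are not reported here. Figures were drawn with matplotlib 3.10.9.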

Additional observations from a re-analysis of the deposited data

Results flagged for a closer look

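In 3 of 52 groups of libraries examined (members, named pathway genes and the summed stromal and macrophage markers, by genotype), a single library lay farther from the others than a limit that chance passes in about 1 of 20 groups, or 2.6 of 52. Control replicate 72 was high for *Rxra*, at 8.64 CPM against 4.86 CPM in the next control library. Control replicate 73 was low for *Meis2*, at 221 CPM against 270 CPM. Control replicate 71 had 0.0852 CPM of *Cyp26c1*, which is 2 reads, where the other control libraries had 0. No member was flagged.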

How the results depend on the processing

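*Stra6*, *Rdh10*, *Dhrs4* and *Tgm2* kept their direction and their side of the threshold in all 17 alternatives. The 2 members past the threshold became 1 without control replicate 71, 72 or 73 or mutant replicate 78, where *Aldh1a3* had log2 fold changes between -1.31 and -1.25. With a library left out, members past the threshold numbered 1 to 2 and *Aldh1a3* lay between -1.58 and -1.13. *Crabp2* passed with limma-voom alone (0.81, adjusted p = 0.0146). Directions that turned belonged to members that passed nowhere. *Rarb* was -0.016 with upper-quartile normalization, -0.10 with 1 surrogate variable, -0.11 without mutant replicates 75 and 77, and -0.16 to 0.086 with a library left out, *Aldh1a2* -0.0049 to 0.16 with a library left out, and *Crabp1* -0.12 with limma-voom. Of the pathway genes, *Dhrs3* ranged from -0.33 to 0.13 with a library left out, and *Rxra* from -0.24 to 0.26; *Rxra* was 0.0091 with DESeq2, 0.0076 with RLE, 0.33 with 1 surrogate variable and 0.32 without mutant replicates 75 and 77. The 7 pathway genes past the threshold were 10 with limma-voom, 10 with 1 surrogate variable, 4 without a filter and 3 to 8 with a library left out. *Cyp26a1* missed the threshold with DESeq2 (adjusted p = 0.0840), without a filter (0.0939) and with 1 surrogate variable (0.0529), and was removed by the filter of 10 counts in every library. *Rdh14* missed it without a filter, and *Meis2* with upper-quartile normalization and without a filter. All genes past the threshold numbered 4868 with limma-voom and 1017 without mutant replicates 75 and 77. The causes were not tested. No paired analysis was made, because the labels give no litter or batch by which control and mutant libraries could be paired. Depth limits the weakly expressed genes: among the members *Aldh1a1* had 0 to 9, *Aldh1a3* 21 to 134 and *Rarg* 44 to 196 reads per library.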
